A study of Mus musculus with 2 samples.

Results

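The genes described here are 10 that move calcium in skeletal muscle fibres: Ryr1, Cacna1s, Trdn, Jph1, Casq1, Casq2, Atp2a1, Atp2a2, Sln and Pvalb. They were chosen by symbol for their known roles, with earlier results of these data known, and matched among the 32285 genes of the count tables. All 10 were found in both libraries and passed the minimum of 10 unique molecular identifiers (UMIs, tags that count captured RNA molecules once) in each comparison. Levels are UMIs per 1000000 UMIs of a group of nuclei, written UPM. Intervals are exact at 95% and cover counting error only.

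A contraction starts when the voltage sensor in the tubules of the surface membrane opens the release channel of the sarcoplasmic reticulum, the calcium store of the fibre. Junction proteins hold both membranes together at the triad, proteins in the lumen of the store and in the cytosol bind calcium, and ATP-driven pumps return it to the store. Fast and slow fibres use different pumps and buffers, and newly formed fibres pass through a stage with embryonic myosin before they take on the adult pattern.

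Nuclei came from the tibialis anterior, a fast muscle of the shin, of male mice, 16 to 20 weeks old, that had chronic kidney disease, and were taken 5 days after the femoral artery was ligated. The first library is labelled AHRfl/fl and the other AHRmKO. Both carry the same strain label, the line AHRtm3.1Bra/J (floxed alleles of Ahr, the aryl hydrocarbon receptor) bred to Tg(ACTA1-cre/Esr1*)2Kesr/J, in which the ACTA1 promoter drives Cre fused to a modified oestrogen receptor. Such a Cre acts in muscle fibres when its ligand is given. The labels name no ligand, do not say whether AHRfl/fl mice carry the transgene, and give no number of animals behind a library. Each group is 1 library, so no value below has a replicate check, no test between groups was possible, and a difference is read only against counting error and against all genes.

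The AHRfl/fl-labelled library held 151788328 UMIs and 19056 barcodes of 2000 or more UMIs, and the AHRmKO-labelled library held 113737134 UMIs and 9015 such barcodes, with medians of 3803.5 and 3596 UMIs. The sets shared 43 barcode sequences, of which 7 were fibre nuclei in both. Fibre nuclei were those in which Ttn, Neb and Dmd, 3 genes of the fibre's contractile and membrane skeleton, made up at least 1% of UMIs, which gave 5105 and 3764 nuclei. They were split by Myh3, the embryonic myosin heavy chain of newly formed fibres, at 0.1% of UMIs into high-Myh3 nuclei (3345 and 1919) and low-Myh3 nuclei (1760 and 1845). Ahr itself was at 34.8 and 32.1 UPM in high-Myh3 nuclei and at 23.6 and 21.9 in low-Myh3 nuclei of the libraries labelled AHRfl/fl and AHRmKO, log2 ratios of -0.11 (-0.31 to 0.07) and -0.10 (-0.39 to 0.18). The count of the targeted gene therefore does not check the labels, and directions are given between libraries as labelled.

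The strata are not alike in the libraries, and these measures move with the results below; their part in the results was not tested. Myh3 lay between 0.1% and 0.3% of UMIs in 2780 of the fibre nuclei of the AHRfl/fl-labelled library and between 0.05% and 0.1% in another 957, against 752 and 174 in the AHRmKO-labelled library, where 1175 fibre nuclei had no Myh3 UMI (187 in the other). The adult fast myosin Myh4 was at 633 and 1035 UPM in low-Myh3 nuclei. Low-Myh3 nuclei of the AHRfl/fl-labelled library still held 544 Myh3 and 360 Myh8 (perinatal myosin) UPM, against 186 and 35.5. The median share of Ttn, Neb and Dmd was 2.73% and 2.14% of UMIs in high- and low-Myh3 nuclei of the AHRfl/fl-labelled library and 5.50% and 2.67% in the other. Malat1, an abundant nuclear RNA, was at 61411 and 70576 UPM against 30549 and 28920, and Gm42418 at 3086 and 2787 against 29116 and 31936. The median mitochondrial share was 0.708% and 0.691% in high- and low-Myh3 nuclei of the AHRfl/fl-labelled library and 2.15% and 2.52% in the other. Pax7, the defining transcription factor of satellite cells, the stem cells of muscle, was at 84.2 UPM in low-Myh3 nuclei of the AHRfl/fl-labelled library and at 344 in those of the AHRmKO-labelled library, and 21.3% and 41.5% of those nuclei had a Pax7 UMI. The summed list of 6 satellite cell markers stood at 545 and 1067 UPM there, and at 485 and 615 in high-Myh3 nuclei. The 14 macrophage markers summed to 1678 and 2047 UPM in high- and low-Myh3 nuclei of the AHRfl/fl-labelled library and to 450 and 759 in the other.

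Promoter windows of RefSeq (GRCm38.p6, from 250 bases before to 50 after the start) were at hand for 6 of the 10 genes. The 3 shown are those of the genes whose levels differed most along the Myh3 axis, Casq2 and Pvalb, which ran in opposite directions, and of the main fast-fibre pump Atp2a1. Capitals mark matches to CANNTG, the E-box core that muscle-forming transcription factors of the MyoD family bind, and to the motif of the MEF2 family, searched on both strands; the motifs did not overlap in these windows.
Casq2, chr3:102086165-102086464, plus strand: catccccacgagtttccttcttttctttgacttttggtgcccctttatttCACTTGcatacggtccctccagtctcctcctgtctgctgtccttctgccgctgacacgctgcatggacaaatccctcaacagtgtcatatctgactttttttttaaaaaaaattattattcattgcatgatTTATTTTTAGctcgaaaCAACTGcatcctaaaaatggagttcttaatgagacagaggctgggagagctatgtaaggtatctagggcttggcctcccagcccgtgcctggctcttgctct
Pvalb, chr15:78206351-78206650, minus strand: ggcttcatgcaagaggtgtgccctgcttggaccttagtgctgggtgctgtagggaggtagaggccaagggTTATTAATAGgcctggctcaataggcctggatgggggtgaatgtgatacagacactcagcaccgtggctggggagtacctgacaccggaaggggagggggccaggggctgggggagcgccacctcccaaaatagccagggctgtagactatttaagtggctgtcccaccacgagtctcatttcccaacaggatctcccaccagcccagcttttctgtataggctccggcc
Atp2a1, chr7:126463024-126463323, minus strand: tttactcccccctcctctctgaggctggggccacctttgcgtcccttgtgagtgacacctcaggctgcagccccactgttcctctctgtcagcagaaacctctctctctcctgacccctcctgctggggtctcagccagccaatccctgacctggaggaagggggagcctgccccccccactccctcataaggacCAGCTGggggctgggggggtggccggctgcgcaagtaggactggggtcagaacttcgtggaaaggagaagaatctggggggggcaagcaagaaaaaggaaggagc
The Casq2 window held 2 E-box cores and 1 MEF2 match, that of Pvalb held no E-box core and 1 MEF2 match, and that of Atp2a1 held 1 E-box core, of the form CAGCTG. Those of Cacna1s and Casq1 each held 2 E-box cores, 1 of them CAGCTG, and no MEF2 match, and that of Ryr1 held none of these. Of 32851 windows of the same length, 72.31% held CANNTG, 16.3% CAGCTG and 1.857% the MEF2 motif. A match is a description of letters and not evidence of binding.

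Outside fibres, nuclei were put into classes by marker lists. The level of each marker in its class was set against its typical level in other classes. In both libraries 5 of 6 satellite cell genes and all 14 macrophage, 7 fibroblast, 7 endothelial and 5 adipocyte genes reached 2-fold. The same lists chose these nuclei, so this result is in part fixed by the choice and does not check the class names. Each of the 10 genes had its highest measured level in a fibre stratum in both libraries when set against satellite cell or myoblast-like, macrophage-like, fibroblast-like, endothelial-like and adipocyte-like nuclei. Ryr1 stood at 1536 and 3098 UPM in high-Myh3 nuclei of the libraries labelled AHRfl/fl and AHRmKO and at 85.7 and 69.2 in macrophage-like nuclei, and Trdn at 1876 and 1216 against 59.9 and 35.1. Atp2a2 had the narrowest gap between fibres and the other classes. It stood at 469 and 318 UPM in high-Myh3 nuclei, and its lowest and highest levels over the 5 other classes were 189 and 237 in the AHRfl/fl-labelled library and 119 and 186 in the other. In low-Myh3 nuclei of the AHRmKO-labelled library, at 147 (139 to 156), Atp2a2 was within counting error of macrophage-like nuclei at 138 (131 to 145). Sln was sparse everywhere, at 13.1 and 5.80 UPM in high-Myh3 nuclei against 4.37 and 0.195 in macrophage-like nuclei. In the AHRmKO-labelled library it had 0 UMIs in fibroblast-like, endothelial-like and adipocyte-like nuclei. By a floor of 3 UMIs this allows up to 1.04, 3.67 and 9.87 UPM, and by the exact intervals up to 1.28, 4.51 and 12.1. The adipocyte limits lie above the fibre level, and the exact endothelial limit reaches the interval of high-Myh3 nuclei, 4.43 to 7.45. The order of Sln between fibres and these 2 classes is therefore not resolved there. The exact limits of all 3 classes reach the interval of low-Myh3 nuclei, 0.77 to 2.59.

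**Figure D1:**
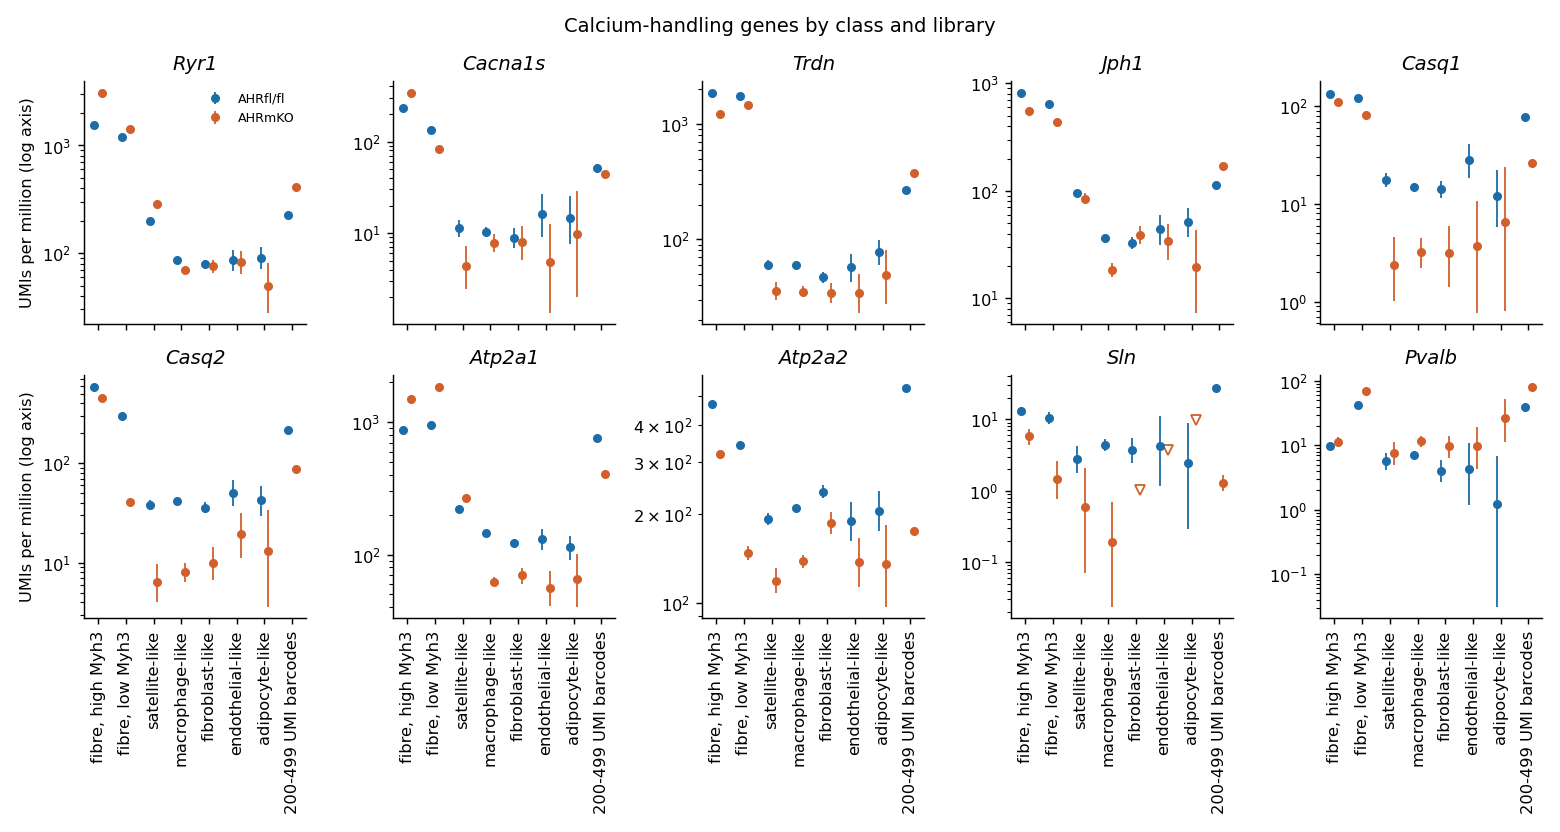
Level of each calcium-handling gene in UPM (log axes with a separate range per panel) by class of nuclei and library. Points are sums over nuclei of 1 library, bars are exact 95% Poisson intervals, and open triangles mark the limit for 0 UMIs, set at 3 UMIs; in each panel the highest measured level of the 7 classes is in a fibre stratum in both libraries, with the limit for Sln in adipocyte-like nuclei of the AHRmKO-labelled library above it, while barcodes of 200 to under 500 UMIs exceed the fibre strata for Sln and Atp2a2 in the AHRfl/fl-labelled library and for Pvalb in the AHRmKO-labelled library.

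RNA free in the suspension can add UMIs to any nucleus, and barcodes of 200 to under 500 UMIs were taken as a measure of it. They held Atp2a2 at 533 and Sln at 27.8 UPM in the AHRfl/fl-labelled library, above both fibre strata, and Pvalb at 81.5 in the AHRmKO-labelled library, also above both. Estimated from fibre genes in macrophage-like nuclei, free RNA made up 15.9% and 13.98% of their UMIs by the profile of those barcodes, and 28.7% and 9.73% by that of barcodes of at most 100 UMIs. Pvalb in high-Myh3 nuclei, at 9.73 (8.41 to 11.2) and 11.3 (9.37 to 13.5) UPM, lay close to macrophage-like nuclei at 7.14 (6.15 to 8.24) and 11.5 (9.504 to 13.8), so Pvalb above background was not detectable there in the AHRmKO-labelled library. It stood at 42.9 and 69.3 in low-Myh3 nuclei.

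Satellite cell or myoblast-like nuclei (1791 and 632) held 3 of the 9 calcium genes with enough UMIs above macrophage-like nuclei of the same library beyond counting error in both libraries. Of all 15096 genes tested, 34.3% met the same criterion, so this share is near the background. Ryr1 was at 199.7 and 289 UPM, log2 ratios over macrophage-like nuclei of 1.22 (1.13 to 1.31) and 2.05 (1.92 to 2.20), Jph1 at 94.5 and 84.6, ratios of 1.37 and 2.17, and Atp2a1 at 221 and 266, ratios of 0.61 and 2.08. Trdn was at 60.05 and 35.7, ratios of 0.00 (-0.15 to 0.15) and 0.02 (-0.28 to 0.32), and the intervals of Casq1, Casq2, Sln and Pvalb also included 0 in both libraries. Atp2a2 was below macrophage-like nuclei, at -0.12 (-0.20 to -0.04) and -0.22 (-0.38 to -0.06), and Cacna1s gave 0.13 (-0.22 to 0.48) and -0.78 (-1.75 to -0.04). The fibre gene Ttn had ratios of 0.62 and 2.31 in the same nuclei. These nuclei fall under 1% of UMIs for Ttn, Neb and Dmd by definition.

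In all, 4 comparisons were made: low-Myh3 over high-Myh3 nuclei in each library, and the AHRmKO-labelled library over the AHRfl/fl-labelled library in each stratum. A gene counted as different at 2-fold or more. Between strata, 1 gene was higher and 1 lower in low-Myh3 nuclei of the AHRfl/fl-labelled library, where 3.23% of 18423 genes were higher and 1.02% lower. In the AHRmKO-labelled library, 1 was higher and 5 were lower, against 13.4% of 15976 genes higher and 7.09% lower. The median log2 ratio of the 10 genes was -0.34 and -0.77, against 0.13 and 0.30 over all genes. Between libraries, 1 gene was higher and 1 lower in the AHRmKO-labelled library in high-Myh3 nuclei, where 5.73% of 18056 genes were higher and 17.6% lower, and none was higher and 3 were lower in low-Myh3 nuclei, where the shares were 10.8% and 19.2% of 17343 genes. The medians of the 10 genes there were -0.33 and -0.56, against -0.16 and -0.07 over all genes. With ratios centred on the median of all genes, the counts between libraries became 1 higher and 0 lower, and 1 higher and 3 lower. The shares of all genes given above are for ratios that were not centred. The comparisons share libraries and strata and are not independent of each other.

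**Figure D2:**
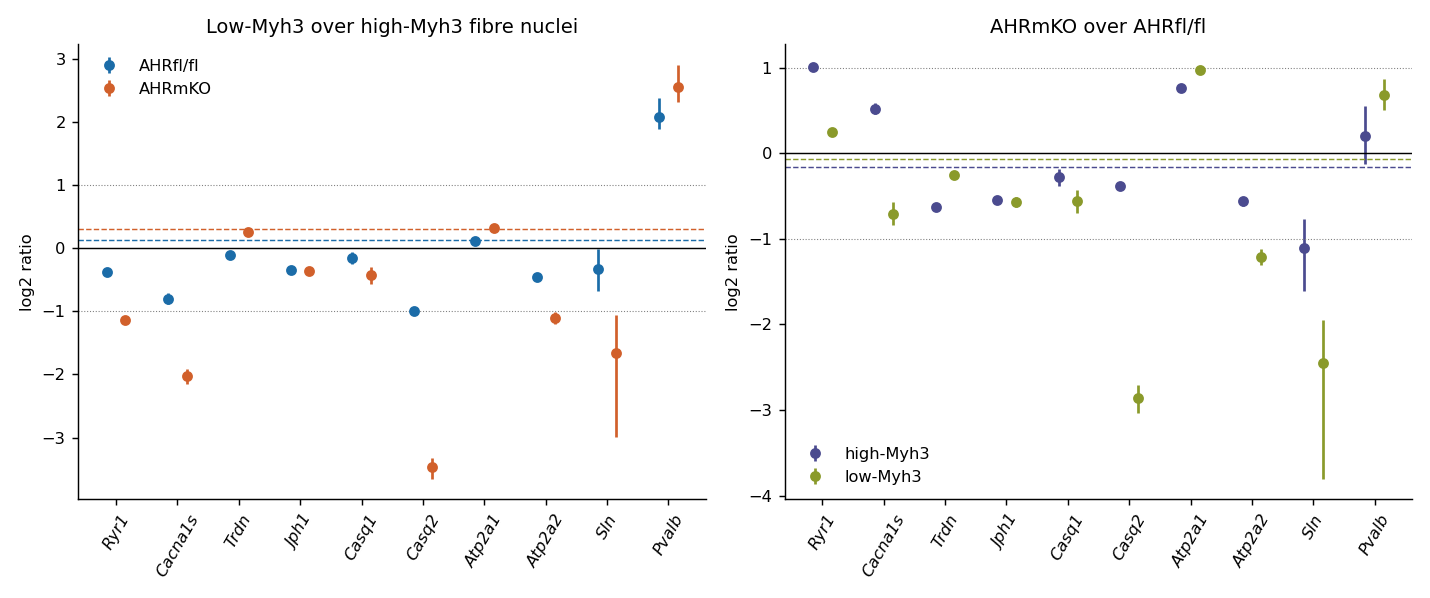
Log2 ratio of each gene between low- and high-Myh3 fibre nuclei in each library (left) and between libraries in each stratum (right). Bars are exact 95% counting intervals of 1 library per group, dotted lines mark 2-fold, and dashed lines mark the median of all genes tested in the colour of the comparison; Casq2 lies lowest on the left at -1.0003 and -3.47, and Pvalb highest at 2.09 and 2.56.

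Ryr1 encodes the release channel (ENSMUSG00000030592, chromosome 7, 29003344 to 29125179, minus strand, GRCm38). Its levels in high- and low-Myh3 nuclei were 1536 and 1187 UPM in the AHRfl/fl-labelled library and 3098 and 1409 in the AHRmKO-labelled library. The high-Myh3 nuclei of the AHRmKO-labelled library stand apart, and the other 3 values lie within 1187 to 1536. The low-over-high log2 ratio was -0.37 (-0.40 to -0.34) and -1.14 (-1.17 to -1.11), and that between libraries 1.01 (0.99 to 1.04) in high-Myh3 and 0.25 (0.21 to 0.28) in low-Myh3 nuclei. The first of these between-library ratios sits at the 2-fold mark, and 7 of the 19 alternatives that can move it brought it under, with a lowest value of 0.77. At matched shares of Ttn, Neb and Dmd, high-Myh3 nuclei stood at 983 and 1094 UPM (1% to 2%), 1663 and 2034 (2% to 4%) and 2014 and 3634 (4% or more). As a ratio, each of these gaps is smaller than the pooled one. In low-Myh3 nuclei the values were 804 and 643, 1549 and 1222, and 1587 and 2535, so the sign turned between bins. The low-over-high ratio of the AHRmKO-labelled library was -0.52 at 4% or more and -0.80 without nuclei holding a Pax7 UMI, both short of 2-fold. From no Myh3 UMI to 1% or more, the 6 bins of the AHRmKO-labelled library held Ryr1 at 1406, 1278, 1698, 2553, 3522 and 4715 UPM, and those of the AHRfl/fl-labelled library at 990, 1085, 1274, 1540, 1526 and 753, the last of 15 nuclei. The highest bin held the highest level in the AHRmKO-labelled library, while that of the other, at 753 (527 to 1042), overlaps its bin of no Myh3 at 990 (921 to 1062).

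Cacna1s encodes the pore and voltage sensor of the surface membrane channel (ENSMUSG00000026407, chromosome 1, 136052750 to 136119822, plus strand). It was at 233 and 134 UPM in high- and low-Myh3 nuclei of the AHRfl/fl-labelled library and at 335 and 82.2 in the other. It was lower in low-Myh3 nuclei of both libraries, with log2 ratios of -0.80 (-0.88 to -0.71) and -2.02 (-2.15 to -1.91). Between libraries its sign differed by stratum, 0.52 (0.46 to 0.58) in high-Myh3 and -0.70 (-0.84 to -0.57) in low-Myh3 nuclei. The sign in high-Myh3 nuclei was not the same at matched shares of Ttn, Neb and Dmd: at 1% to 2% of UMIs the libraries stood at 118.6 and 49.5 UPM, at 2% to 4% at 263 and 179, and at 4% or more at 315 and 413. In low-Myh3 nuclei it stood at 68.2 and 17.6 UPM at 1% to 2% and at 197 and 36.9 at 2% to 4%. As ratios, both of these gaps are wider than the pooled one. At 4% or more it was at 202.8 and 199.999 UPM, a between-library log2 ratio of -0.02. Over all low-Myh3 nuclei without a Pax7 UMI the ratio was -0.17.

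Trdn encodes triadin, which ties calsequestrin to the release channel (ENSMUSG00000019787, chromosome 10, 33080554 to 33476709, plus strand). Its levels were 1876 and 1740 UPM in high- and low-Myh3 nuclei of the AHRfl/fl-labelled library and 1216 and 1458 in the other. Both strata were thus lower in the AHRmKO-labelled library, by log2 ratios of -0.63 (-0.65 to -0.60) and -0.26 (-0.29 to -0.22). The second ratio was 0.34 without nuclei holding a Pax7 UMI. At matched shares of fibre genes the first gap was, as a ratio, wider than the pooled one: 765 and 233 UPM at 1% to 2%, 2071 and 757 at 2% to 4%, and 3161 and 1454 at 4% or more, a log2 ratio of -1.12. Low over high, Trdn gave -0.11 (-0.13 to -0.08) and 0.26 (0.23 to 0.30), and among nuclei with at least 4% of UMIs in the fibre genes 0.47 and 1.47, so its sign in the AHRfl/fl-labelled library was not the same under both fibre rules. By bin of fibre genes its sign turned in both libraries. Low- and high-Myh3 nuclei of the AHRfl/fl-labelled library stood at 638 and 765 UPM (1% to 2%), 2298 and 2071 (2% to 4%) and 4393 and 3161 (4% or more). Those of the other stood at 87.3 and 233, 413 and 757, and 4019 and 1454. The 0.26 of the AHRmKO-labelled library lies below the median of all genes there, 0.30.

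Jph1 encodes junctophilin, which bridges the store to the tubule membrane (ENSMUSG00000042686, chromosome 1, 16964560 to 17097889, minus strand). It was at 818 and 642 UPM in high- and low-Myh3 nuclei of the AHRfl/fl-labelled library and at 559 and 433 in the other, and so lower in low-Myh3 nuclei by -0.35 (-0.39 to -0.31) and -0.37 (-0.43 to -0.31) on the log2 scale. At 4% or more of fibre genes these ratios were 0.20 and 0.66. Between libraries the log2 ratios were -0.55 (-0.59 to -0.51) and -0.57 (-0.62 to -0.51), and these 2 values carry an uncertainty of strand given next. At matched shares of fibre genes the gap was wider under 4%: 493 and 187 UPM (1% to 2%) and 903 and 415 (2% to 4%) in high-Myh3 nuclei, and 402 and 125, and 770 and 199.5, in low-Myh3 nuclei, each past 2-fold. At 4% or more it was 1040 and 638 in high-Myh3 nuclei, a log2 ratio of -0.70, also wider than the pooled one. In low-Myh3 nuclei it was 1193 and 1009 there, a log2 ratio of -0.24, narrower than the pooled one.

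Annotated antisense genes overlap 5 of the 10 genes, and the sources used here do not say whether strand was used in counting, so reads of a gene and of its antisense partner may not have been kept apart. Across Jph1 runs Gm28376 (chromosome 1, 16898185 to 17091631), with 31475 UMIs in fibre nuclei of the AHRfl/fl-labelled library, 136.4% of those of Jph1, and 355 in the AHRmKO-labelled library, 3.781%. Across Trdn, D830005E20Rik (chromosome 10, 33222345 to 33256418) had 5448 and 17 UMIs, across Ryr1 Gm38979 had 1917 and 8 and Gm26604 878 and 19, and across Cacna1s Gm37759 had 416 and 13. All 5 of these antisense genes were far lower relative to their partner in the AHRmKO-labelled library, whereas Gm17224 across Casq1 had 33 and 20 UMIs. The 2955 genes annotated as antisense held 2.23% and 2.07% of the UMIs of high- and low-Myh3 nuclei in the AHRfl/fl-labelled library and 0.754% and 0.676% in the AHRmKO-labelled library. With antisense UMIs added to the gene, an alternative chosen after seeing the data, Jph1 gave between-library log2 ratios of -1.75 and -1.72, Trdn -0.76 and -0.39, Ryr1 0.92 and 0.16 and Cacna1s 0.43 and -0.81. No sign changed, but Jph1 passed the 2-fold mark in both strata. Part of Gm28376 lies outside Jph1, which starts at 16964560, and all UMIs of Gm28376 were added. The Jph1 ratios with antisense UMIs can therefore include reads from outside Jph1. Rabep2, a protein-coding gene whose end overlaps that of Atp2a1 on the other strand, had 3547 and 451 UMIs.

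**Figure D3:**
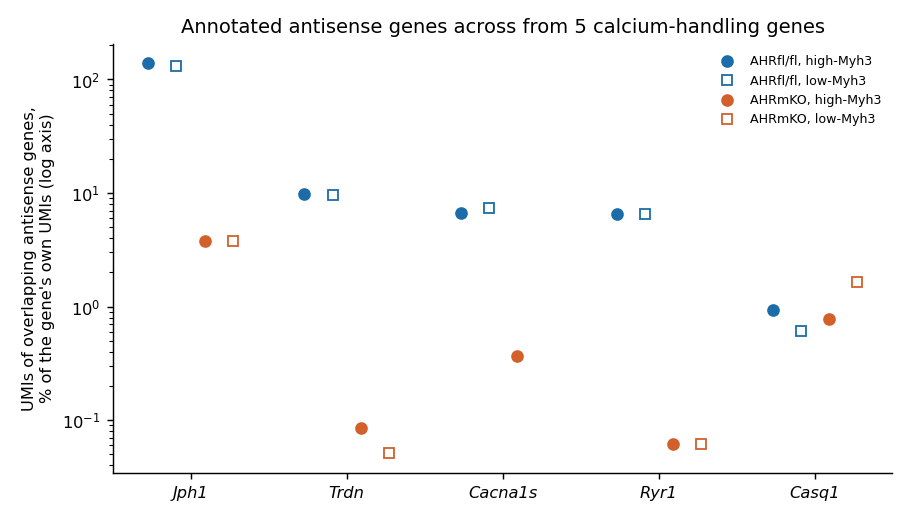
UMIs of the annotated antisense genes that overlap a calcium-handling gene, as a percentage of that gene's own UMIs (log axis), in fibre nuclei of each library and stratum. Jph1 stands at 138% and 132% in the AHRfl/fl-labelled library against 3.79% and 3.77% in the other; the low-Myh3 point of Cacna1s in the AHRmKO-labelled library had 0 UMIs, which allows up to 0.451%, and is not drawn.

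Casq1 encodes the main calsequestrin of fast fibres, the calcium-binding protein of the lumen (ENSMUSG00000007122, chromosome 1, 172209894 to 172219868, minus strand). It differed by under 2-fold between groups, at 135 and 122 UPM in high- and low-Myh3 nuclei of the AHRfl/fl-labelled library, and 111 and 82.4 in the other. Low over high it gave log2 ratios of -0.15 (-0.25 to -0.05) and -0.43 (-0.57 to -0.29), and between libraries -0.28 (-0.38 to -0.18) and -0.56 (-0.70 to -0.43). None reached 2-fold, but at a UMI minimum of 4000 the low-over-high ratio of the AHRmKO-labelled library was -1.06 and the between-library ratio of low-Myh3 nuclei -1.22. At matched shares of fibre genes the gap between libraries in high-Myh3 nuclei was wider than the pooled one. It was 59.9 and 30.2 UPM at 1% to 2%, 148.5 and 63.5 at 2% to 4%, and 220 and 134 at 4% or more, a log2 ratio of -0.71. In low-Myh3 nuclei it was wider under 4%, at 52.6 and 6.76 (1% to 2%) and 162 and 26.0 (2% to 4%). There it was narrower at 4% or more, at 271 and 223, a log2 ratio of -0.28. At 4% or more, low over high turned to 0.30 and 0.73.

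Casq2, the calsequestrin of heart and slow fibres (ENSMUSG00000027861, chromosome 3, 102086415 to 102146514, plus strand), ranged more widely over the groups than Casq1. It was at 591 and 295 UPM in high- and low-Myh3 nuclei of the AHRfl/fl-labelled library and at 453 and 40.4 in the AHRmKO-labelled library. The last value stands far below the other 3. Low over high, the log2 ratios were -1.0003 (-1.06 to -0.94) and -3.47 (-3.65 to -3.32), and between libraries -0.38 (-0.43 to -0.33) in high-Myh3 and -2.85 (-3.04 to -2.70) in low-Myh3 nuclei. In high-Myh3 nuclei the pooled ratio between libraries understates the gap at matched shares of fibre genes, at 399 and 94.8 UPM (1% to 2%, 44 UMIs in the AHRmKO-labelled library), 642 and 339 (2% to 4%) and 720 and 520 (4% or more). In low-Myh3 nuclei the bins were at 233 and 21.5, 398 and 45.2, and 224 and 61.1. The signs held in the 18 alternatives that can move the value, whereas the value of -1.0003 fell short of 2-fold in 10 of these and reached -2.16 when nuclei with Myh3 from 0.03% to under 0.3% were left out.

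Casq2 was graded along Myh3 within each library. In nuclei of the AHRfl/fl-labelled library it was at 80.3 UPM with no Myh3 UMI, 217 up to 0.05%, 370 up to 0.1%, 579 up to 0.3% and 659 up to 1%. In the other library the same bins gave 17.8, 35.0, 146, 373 and 521. At each of these bins the AHRmKO-labelled library was lower. The low-Myh3 strata hold these bins in different numbers, and Myh3 and library cannot be told apart in their overall ratio. After thinning each nucleus to 2000 UMIs, a Casq2 UMI was found in 62.9% of high-Myh3, 36.0% of low-Myh3 and 8.16% of macrophage-like nuclei of the AHRfl/fl-labelled library, and in 51.7%, 5.96% and 1.79% of those of the other. Without thinning the shares were 86.4%, 56.0% and 13.2%, and 72.3%, 10.6% and 3.34%, at median depths of 5203, 5067.5 and 2993 UMIs, and 4403, 3450 and 3192. Gm43244 and 4632404M16Rik, annotated inside introns of Casq2 on the same strand, had 413 and 1073 UMIs beside 14882 of Casq2 in the AHRfl/fl-labelled library and 142 and 604 beside 5097 in the other.

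**Figure D4:**
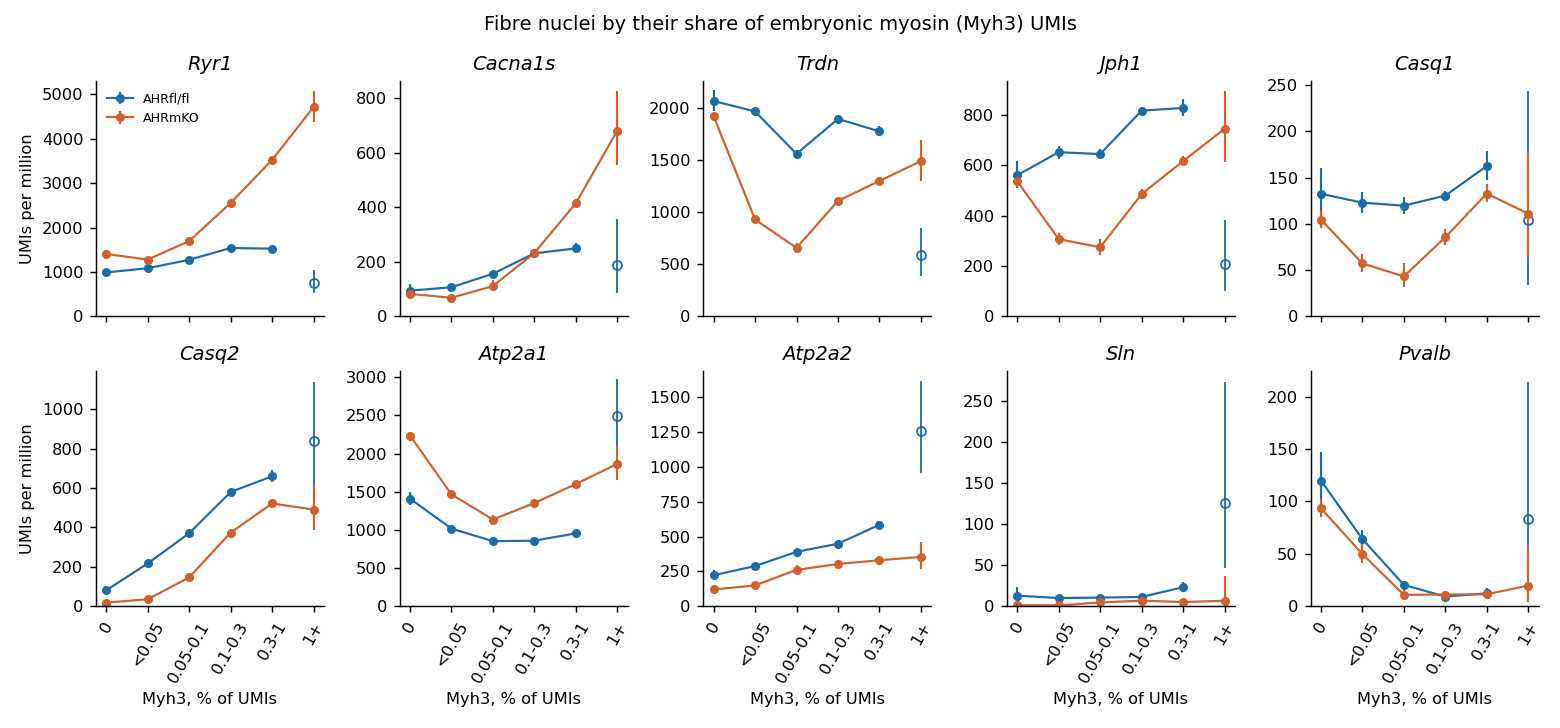
Level of each gene in UPM (separate linear axes from 0) in fibre nuclei binned by the share of Myh3 in their UMIs, by library, with exact 95% Poisson intervals. The open, unjoined point is a bin of 15 nuclei; Casq2 goes from 80.3 to 659 and from 17.8 to 521 between no Myh3 and the bin of 0.3% to 1%, while Pvalb goes from 120 to 12.2 and from 93.4 to 11.3.

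Atp2a1 encodes SERCA1, the uptake pump of fast fibres (ENSMUSG00000030730, chromosome 7, 126445858 to 126463108, minus strand). It was at 875 and 950 UPM in high- and low-Myh3 nuclei of the AHRfl/fl-labelled library and at 1490 and 1859 in the other. Both strata were higher in the AHRmKO-labelled library, by log2 ratios of 0.77 (0.74 to 0.80) and 0.97 (0.93 to 1.005), the second just under 2-fold. Over the alternatives the second ran from 0.52 at a UMI minimum of 4000 to 1.48 without nuclei holding markers of other classes. The first ran from 0.35 at 4% or more of fibre genes to 1.06, again without nuclei holding those markers. That setting kept only 50 high-Myh3 and 22 low-Myh3 nuclei of the AHRfl/fl-labelled library. At matched shares of fibre genes, high-Myh3 nuclei stood at 609 and 640 UPM (1% to 2%), 899 and 1181 (2% to 4%) and 1306 and 1663 (4% or more). As ratios, each of these gaps is smaller than the pooled one. Low-Myh3 nuclei stood at 534 and 563, 1152 and 1127, and 1979 and 4084, nearly level under 4%. Low over high, the ratios were 0.12 (0.08 to 0.15) and 0.32 (0.29 to 0.35), the first just below the 0.13 of all genes. At 4% or more of fibre genes they were 0.60 and 1.30, the second past 2-fold.

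Atp2a2 encodes SERCA2, the pump of slow fibres and heart, of which a further form serves most cell types (ENSMUSG00000029467, chromosome 5, 122453513 to 122502225, minus strand). It was at 469 and 342 UPM in high- and low-Myh3 nuclei of the AHRfl/fl-labelled library and at 318 and 147 in the other. Where Atp2a1 was higher in the AHRmKO-labelled library, Atp2a2 was lower, with log2 ratios of -0.56 (-0.62 to -0.51) and -1.21 (-1.31 to -1.12). Low over high it gave -0.46 (-0.51 to -0.40) and -1.11 (-1.20 to -1.01). It climbed with Myh3 in both libraries, from 222 with no Myh3 to 584 between 0.3% and 1%, and from 120 to 330. The level of 533 UPM in barcodes of 200 to under 500 UMIs of the AHRfl/fl-labelled library, against 175 in the other, lies in the same direction as the difference between libraries, and its part in that difference was not tested beyond the subtraction of free RNA, under which the sign held.

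Sln encodes sarcolipin, a small membrane protein that inhibits the pump (ENSMUSG00000042045, chromosome 9, 53850164 to 53854560, plus strand). It rested on few UMIs: 260 and 111 in high- and low-Myh3 nuclei of the AHRfl/fl-labelled library and 61 and 12 in the other, or 13.1, 10.4, 5.80 and 1.48 UPM. Between libraries the log2 ratios were -1.11 (-1.60 to -0.77) and -2.46 (-3.80 to -1.94), and low over high -0.32 (-0.67 to -0.01) and -1.67 (-2.99 to -1.06). In 6 of the 18 alternatives that can move it the first of these fell short of 2-fold. The pool of barcodes of 200 to under 500 UMIs held 27.8 and 1.28 UPM of Sln, a gap in the same direction as that in fibre nuclei. Its part in the Sln ratio was not tested beyond that subtraction, which left -0.62 in high-Myh3 nuclei by the profile of these barcodes.

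Pvalb encodes parvalbumin, the cytosolic calcium buffer of the fastest fibres (ENSMUSG00000005716, chromosome 15, 78191114 to 78206400, minus strand). It was the 1 gene higher by 2-fold in low-Myh3 nuclei of both libraries, at 9.73 and 42.9 UPM in high- and low-Myh3 nuclei of the AHRfl/fl-labelled library and 11.3 and 69.3 in the other, log2 ratios of 2.09 (1.90 to 2.39) and 2.56 (2.33 to 2.91). The sign held in the 18 alternatives that can move the value, over ranges of 0.70 to 5.16 and 1.99 to 7.08, with the highest values where free RNA was subtracted. The size of these ratios is not well determined, since the high-Myh3 level of the AHRmKO-labelled library was not detectable above background. By Myh3 bin, Pvalb was at 120, 64.0, 20.3 and 9.12 UPM from no Myh3 to the bin of 0.1% to 0.3% in the AHRfl/fl-labelled library, and at 93.4, 49.7, 10.8 and 11.1 in the other. Within both libraries the level fell off toward the high-Myh3 bins, and in 3 of these 4 bins the AHRfl/fl-labelled library was the higher. Thinned to 2000 UMIs, a Pvalb UMI was found in 2.33%, 7.67% and 1.61% of high-Myh3, low-Myh3 and macrophage-like nuclei of the AHRfl/fl-labelled library, and in 2.40%, 12.9% and 2.67% of the other, against 4.66%, 14.5% and 2.66%, and 5.63%, 19.6% and 4.59%, without thinning. Between libraries, low-Myh3 nuclei gave 0.68 (0.51 to 0.87), which was -0.04 at 4% or more of fibre genes and 1.01 without nuclei holding a Pax7 UMI. Without those holding markers of other classes it was 1.95, on only 22 nuclei of the AHRfl/fl-labelled library and 552 of the other. High-Myh3 nuclei gave 0.21 (-0.13 to 0.55), whose sign turned in 7 of the 18. The pooled 0.68 has the opposite sign to each low-Myh3 bin of fibre gene share. These stood at 10.6 and 10.3 UPM (1% to 2%), 38.8 and 24.6 (2% to 4%) and 184 and 179 (4% or more). The intervals of the first and last pair overlap.

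The low-Myh3 stratum held different nuclei by their share of fibre genes. At 1% to 2% it counted 813 nuclei in the AHRfl/fl-labelled library and 690 in the AHRmKO-labelled library, with Pax7 at 113 and 585 UPM and a Pax7 UMI in 28.0% and 69.3% of nuclei. There Trdn was at 638 and 87.3 UPM, Casq1 at 52.6 and 6.76, Atp2a1 at 534 and 563 and Pvalb at 10.6 and 10.3. At 4% or more, 263 and 727 nuclei had Pax7 at 18.1 and 58.1, Trdn at 4393 and 4019, Casq1 at 271 and 223, Atp2a1 at 1979 and 4084, and Pvalb at 184 and 179. Trdn, Jph1, Casq1, Cacna1s and Pvalb thus stood near each other in the libraries where fibre genes were high, with between-library log2 ratios from -0.28 to -0.02. Casq2, Atp2a2 and Sln had ratios of -1.86, -1.25 and -2.88 there, against -2.85, -1.21 and -2.46 over all low-Myh3 nuclei, and Ryr1 and Atp2a1 had 0.68 and 1.05, against 0.25 and 0.97. Sln rests there on 19 and 4 UMIs. These nuclei are chosen in part by Ttn and Dmd, which themselves differed between the libraries, with log2 ratios of 1.201 and -0.67 over all low-Myh3 nuclei.

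The libraries fill the bins of fibre gene share unequally also in high-Myh3 nuclei, with 827, 2102 and 416 nuclei at 1% to 2%, 2% to 4% and 4% or more in the AHRfl/fl-labelled library and 67, 415 and 1437 in the other. Pooled between-library ratios therefore mix this composition with differences at matched share, and each can differ in size or sign from the bins. Over the 6 bins of both strata, Trdn, Jph1, Casq1, Casq2, Atp2a2 and Sln were lower in the AHRmKO-labelled library in all 6, and Cacna1s in 5. Of the 12248 genes with at least 10 UMIs over both libraries in each bin, 21.8% were lower in all 6 and 25.7% higher in all 6. Atp2a1 was higher in 5 and Ryr1 in 4. Pvalb was higher in 2, those of high-Myh3 nuclei under 4%. Atp2a1 of low-Myh3 nuclei was nearly level under 4%, at 534 and 563 and at 1152 and 1127 UPM, and apart at 4% or more, at 1979 and 4084. Sln rests on 0 to 11 UMIs in 5 of these bins of the AHRmKO-labelled library. These directions are of point values, some nearly equal, and are a description: the bins share their libraries.

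**Figure D5:**
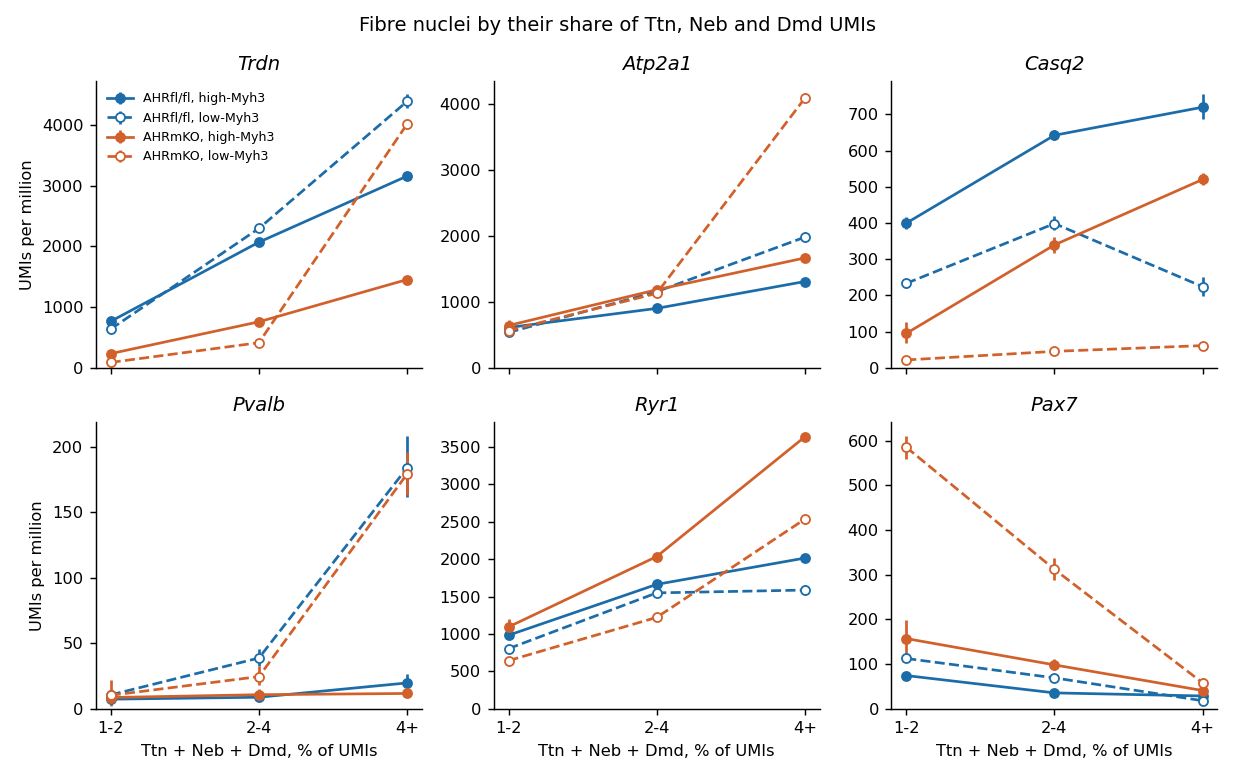
Level of 5 calcium-handling genes and of the satellite cell gene Pax7, in UPM (linear axes from 0), by the share of Ttn, Neb and Dmd in a nucleus, for each library and stratum, with exact 95% Poisson intervals. From 1% to 2% up to 4% or more, low-Myh3 nuclei of the AHRmKO-labelled library go from 87.3 to 4019 for Trdn and from 585 to 58.1 for Pax7.

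Low-Myh3 nuclei with 4% or more of fibre genes were also grouped by their leading adult fast myosin, Myh4 (type IIb, the fastest), Myh1 (IIx) or Myh2 (IIa). Pvalb was higher in Myh4-led than in Myh1-led nuclei of both libraries, at 220 (190 to 253) against 80.0 (52.8 to 116) UPM in the AHRfl/fl-labelled library (176 and 61 nuclei) and 267 (241 to 295) against 91.2 (72.6 to 113) in the other (415 and 232 nuclei). The order was opposite for Atp2a2, at 182 (155 to 212) and 421 (355 to 496), and 83.8 (69.5 to 100.1) and 120 (98.3 to 144), where the second pair's intervals touch, and for Casq2, at 174 and 388, and 38.8 and 92.3. Casq1 was higher in Myh4-led nuclei of the AHRmKO-labelled library, at 293 (266 to 322) against 166 (140 to 195), while in the other the intervals overlap, at 264 (231 to 301) and 332 (273 to 400). Over all low-Myh3 nuclei it was higher in Myh4-led nuclei of both libraries, at 155 (143 to 167) against 124 (114 to 136) and 184 (168 to 202) against 89.5 (76.7 to 104). Atp2a1 differed in order between libraries at 4% or more. It was higher in Myh4-led nuclei of the AHRfl/fl-labelled library, at 2255 (2157 to 2357) against 1444 (1318 to 1578) UPM. In the other it was lower in them, at 4195 (4090 to 4302) against 4525 (4388 to 4666). Over all low-Myh3 nuclei Atp2a1 was higher in Myh4-led nuclei of both, at 1264 against 826 and 2825 against 2608. Myh2 led in 1 and 18 nuclei, too few to describe. Where Myh4 or Myh1 led, Casq2 was lower in the AHRmKO-labelled library.

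A wider list of 56 genes of calcium handling was described beside the 10, of which 54 or 55 passed the UMI minimum in each comparison. Between strata, 1 gene was higher and none lower in low-Myh3 nuclei of the AHRfl/fl-labelled library, where 3.23% of all genes were higher and 1.02% lower. In the AHRmKO-labelled library 3 were higher and 15 lower, against 13.4% and 7.09% of all genes. The medians of the list were -0.19 and -0.48 on the log2 scale, against 0.13 and 0.30 over all genes. Between libraries, 2 (3.64% of 55) were higher and 4 (7.27%) lower in high-Myh3 nuclei, both below the 5.73% and 17.6% of all genes. In low-Myh3 nuclei 3 (5.45% of 55) were higher and 16 (29.1%) lower, against 10.8% and 19.2%. The medians were -0.26 and -0.57, against -0.16 and -0.07. By group of the list, the genes lower by 2-fold in low-Myh3 nuclei of the AHRmKO-labelled library were 5 of 10 of triad and membrane structure, 4 of 10 buffers and sensors, 3 of 10 partners of the release channel and voltage sensor, 1 of 2 counter-ion channels, 1 of 6 of mitochondrial uptake and 1 of 7 kinases and other release channels. Those higher were 2 of 4 of plasma membrane export and 1 of the 7 kinases and other release channels, and the groups of store-operated entry and of pump regulators had none either way. Among the triad genes were Cav3, the caveolin of muscle, with a log2 ratio of -2.59, and Trim72, which acts in membrane repair, with -2.22. The slow troponin C gene Tnnc1 gave -2.58 there, and all 3 were also the lowest in the AHRfl/fl-labelled library, at -0.86, -0.64 and -0.98, short of 2-fold. Higher by 2-fold in low-Myh3 nuclei of the AHRmKO-labelled library were the plasma membrane pump Atp2b4, at 1.88, the exchanger Slc8a1, at 1.32, and the inositol trisphosphate receptor Itpr1, at 1.11. In the AHRfl/fl-labelled library Atp2b4 and Slc8a1 gave 0.97 and 0.86, short of 2-fold. Ratios of the wider list, here and below, are given over whole strata only, not at matched shares of fibre genes. A Pax7 UMI was found in 18.9% of high-Myh3 and 41.5% of low-Myh3 nuclei of the AHRmKO-labelled library, and in 14.5% and 21.3% in the other. The part of such nuclei in these ratios was not tested.

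Between libraries, the lowest of the wider list was Pln, phospholamban, the pump inhibitor of heart and slow fibres. It had 75 UMIs in high-Myh3 nuclei of the AHRfl/fl-labelled library and 0 in the AHRmKO-labelled library, at least 13.3-fold lower by a floor of 3 UMIs over the group, and 97 and 3 in low-Myh3 nuclei, a log2 ratio of -3.46 (-6.91 to -3.02). Pln was also the gene higher by 2-fold in low-Myh3 nuclei of the AHRfl/fl-labelled library, at 1.16. Calr, the calcium-binding chaperone of the store, and Smdt1, a part of the mitochondrial uptake channel, were lower in high-Myh3 nuclei at -1.71 and -1.95, and Cav3 and Hrc, a calcium-binding protein of the lumen, in low-Myh3 nuclei at -2.12 and -2.06. By group, those lower by 2-fold in low-Myh3 nuclei, where 19.2% of all genes were, were 5 of 10 buffers and sensors, 3 of 10 partners of the release channel and voltage sensor, 3 of 10 of triad and membrane structure, 3 of 6 of mitochondrial uptake, 1 of 2 counter-ion channels and 1 of 3 pump regulators tested. Those higher, against 10.8% of all genes, were 1 of the triad group, 1 of 4 of plasma membrane export and 1 of 7 kinases and other release channels, and none of 3 of store-operated entry passed either way. Higher in the AHRmKO-labelled library were Atp2a3, the pump of non-muscle cells, at 1.60 on 51 and 25 UMIs, the mitochondrial exchanger Slc8b1 at 1.04 and Atp2b4 at 0.87 in high-Myh3 nuclei, and in low-Myh3 nuclei Atp2b4 at 1.78 and the receptor Itpr3 at 1.12.

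Genes most like each of the 10 were taken by Pearson's r of log2 levels over 12 points, the 6 Myh3 bins of both libraries, among 12340 genes with at least 200 UMIs in fibre nuclei. These points share 2 libraries and an order along Myh3, so r is a description, and the best of so many genes is high by choice. Ryr1 was nearest to Alpk3 (0.99) and Prkag3 (0.98), Cacna1s to Sema3b (0.96), Pstpip1 and Dlgap4 (both 0.95), Trdn to Sgcd (0.96) and Dmd (0.94), which was used to choose fibre nuclei, and Jph1 to Tbx15 (0.96). Casq1 was nearest to Bpnt1 (0.91), and Casq2 to Npnt (0.99), Agpat3 and Rhoq (both 0.98). Atp2a1 was nearest to Actn3 (0.95), the actinin of fast fibres, and Atp2a2 to Tubb6 (0.99), Prkaca and Acta2 (both 0.98). Sln was nearest to Myog (0.98), the differentiation factor of myoblasts, Ppib (0.98) and Mustn1 (0.97), and Pvalb to Hook1 (0.95), Tcap and Glul (both 0.94). Among the 10 themselves, the highest values were 0.93 for Sln with Atp2a2, 0.89 for Jph1 with Trdn and 0.88 for Atp2a2 with Casq2, and the lowest was -0.63 for Pvalb with Ryr1. The bin of 15 nuclei in the AHRfl/fl-labelled library holds 6 Sln UMIs, at 125 UPM, and r was not computed without it.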

How the data were processed

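Single-nucleus RNA of 2 libraries was measured, 1 for each group. The authors deposited raw UMI counts for each gene and barcode. Counting used Cell Ranger 7.0.1 and mm10, per the submitters' processing notes; the annotation, the handling of introns and the use of strand are not given in the sources used here. Other columns of per-sample values numbered 0.

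From these counts, barcodes of 2000 or more UMIs were kept, and classes came from 14 marker lists scored by a Poisson test (p at most 0.001 and at least 3 UMIs). Nuclei matching the smooth muscle list were rich in Pax7 and left unnamed, and classes of under 50 nuclei were not compared. Fibre and Myh3 strata were set as the report states. Levels are summed UMIs per 1000000 UMIs (UPM) with exact Poisson intervals. Log2 ratios have 0.5 UPM added, and their intervals are exact binomial intervals of the raw ratio without that addition. Genes needed 10 UMIs over both sides. Nuclei are not replicates, so no p-value was computed between groups. Doublets were kept, and leaving out those called by Scrublet (in scanpy 1.11.5) was an alternative. The code was tested on simulated data. The 10 genes and all lists were chosen with earlier results of these data known. Genes named from the wider list were the 3 highest and 3 lowest ratios in each comparison with at least 30 UMIs. Some genes that the naming rules pick are not reported here. Positions are from GENCODE on GRCm38. In all, 20 alternatives were tried, 2 of them (leaving out nuclei with a Pax7 UMI, and adding antisense UMIs) chosen after seeing the data. Python 3.11.15, numpy 2.4.6, scipy 1.17.1, pandas 2.3.3 and matplotlib 3.10.9 were used.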

Additional observations from a re-analysis of the deposited data

Results flagged for a closer look

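The between-library ratio of Cacna1s had opposite signs in the strata, 0.52 on the log2 scale in high-Myh3 nuclei and -0.70 in low-Myh3 nuclei (AHRmKO over AHRfl/fl). In high-Myh3 nuclei with under 4% of UMIs in Ttn, Neb and Dmd the AHRmKO-labelled library was the lower, as in low-Myh3 nuclei, at 49.5 against 118.6 UPM (1% to 2%) and 179 against 263 (2% to 4%). The low-over-high ratio of Trdn had opposite signs in the libraries, -0.11 in the AHRfl/fl-labelled library and 0.26 in the AHRmKO-labelled library. At 4% or more of fibre genes both ratios were positive, 0.47 and 1.47. Under 4%, low-Myh3 nuclei of the AHRmKO-labelled library were the lower, at 87.3 against 233 UPM (1% to 2%) and 413 against 757 (2% to 4%). With 1 library per group neither difference was tested.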

How the results depend on the processing

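Of the 20 alternatives, the minimum of UMIs per gene cannot move any of the 10 genes, and antisense UMIs cannot move Casq2, Atp2a1, Atp2a2, Sln or Pvalb. In the other 18 (Casq2, Atp2a2) or 19 (Cacna1s), signs held in all 4 comparisons, though bins of fibre gene share, in some of which Cacna1s turned, are not among them. Pvalb between libraries in high-Myh3 nuclei ranged from -3.18 to 2.54, and Trdn in low-Myh3 nuclei from -0.71 to 0.42. Centring on the median of all genes, which shifts all ratios of a comparison alike, is counted among these alternatives. Signs also turned between libraries in low-Myh3 nuclei for Pvalb in 2 and for Ryr1 and Jph1 in 1 alternative each, Jph1 reaching 0.21 without nuclei holding markers of other classes. Low over high, they turned in the AHRfl/fl-labelled library for Trdn in 7, Casq1 in 3, Atp2a1 in 2 and Jph1 and Sln in 1 each, and in the AHRmKO-labelled library for Jph1 and Casq1 in 4 each, Trdn in 2 and Atp2a1 in 1. The counts of the 10 genes past 2-fold are small, and these changed. The cause was not tested. The shares of all genes past 2-fold are given for the main setting only, so the counts under alternatives cannot be set against a background.

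In high-Myh3 nuclei between libraries, the 1 higher gene became 0 at a UMI minimum of 4000, with the fibre rule at 2% or 4%, with free RNA subtracted by the profile of 200 to under 500 UMIs, without Scrublet doublets and with antisense UMIs added, and 4 without nuclei holding markers of other classes. The 1 lower gene became 0 at 4000 UMIs, under a mitochondrial limit of 5%, after centring on the median ratio, with 5 UPM added and without nuclei with a Pax7 UMI, and 2 with the fibre rule at 4% or antisense UMIs added. A count that stayed the same need not be of the same gene. With free RNA subtracted by the profile of 200 to under 500 UMIs, Sln was at -0.62 and Pvalb at -3.18. By the profile of at most 100 UMIs, Ryr1 was at 0.77 and Pvalb at 2.54.

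In low-Myh3 nuclei between libraries, the 0 higher genes became 1 at a UMI minimum of 1000, with the fibre rule at 2% or 4%, the Myh3 split at 0.3%, free RNA of 200 to under 500 UMIs subtracted, the mitochondrial limit, a denominator without abundant genes, centring, equal weights of nuclei and thinning to 2000 UMIs, and 2 without nuclei holding other classes' markers or a Pax7 UMI. The 3 lower genes became 5 at 4000 UMIs, with Cacna1s and Casq1 added, 4 with antisense UMIs added and 2 with the split at 0.3%.

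Low over high in the AHRfl/fl-labelled library, the 1 higher gene became 0 with the split at 0.3% and 2 without other classes' markers. The 1 lower gene became 0 at 1000 and 4000 UMIs, at the fibre rule of 2%, under the mitochondrial limit, without other classes' markers, without abundant genes in the denominator, after thinning, with 5 UPM added and without Pax7, 2 with the fibre rule at 4% or the split at 0.05%, and 4 with a gap in the Myh3 split. In the AHRmKO-labelled library, the 1 higher gene became 3 with the fibre rule at 4% and 2 without other classes' markers, and the 5 lower genes became 2 with the split at 0.3% and 4 with the fibre rule at 2% or 4%, without other classes' markers, with 5 UPM added and without Pax7.

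Leaving out nuclei with other classes' markers kept 50 and 22 high- and low-Myh3 nuclei of the AHRfl/fl-labelled library and 488 and 552 of the other. Depth limits Sln and Pln, with 12 and 3 UMIs in low-Myh3 nuclei of the AHRmKO-labelled library. Leaving out a library leaves no comparison between libraries and does not touch low over high in the other. No paired analysis was possible because each group has 1 library.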
